A study of Mus musculus with 6 samples.

Results

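The 42 genes described here carry out DNA replication and the other work of S phase, the part of the cell cycle in which the genome is copied. They were chosen by symbol as replication factors, with earlier results of these data known, and all 42 were found among the 54838 gene identifiers of the count tables. All 42 also passed the filter on low counts. The sequenced RNA is described as that of glomeruli, the filtering units of the kidney, isolated from 3-week-old mice. A group of 3 libraries is labelled CTRL with the genotype wild type (animals 157, 162 and 163), and a group of 3 is labelled KO with the genotype bPIX -/- (animals 146, 147 and 148). The series' description states that bPIX was deleted in podocytes alone, so the other cells of the glomerulus keep the gene. The sources used here do not give the driver of the deletion, the strain or the sex. bPIX, the product of Arhgef7, activates the small GTPases Rac1 and Cdc42.

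For all 6 libraries the file name gives the opposite group to the sample label. Groups follow the labels here, and every direction below would turn if the file names were the correct ones. Arhgef7 had 3956, 3582 and 3915 reads in the CTRL-labelled libraries (157, 162 and 163, in this order) and 7837, 3712 and 3903 in the KO-labelled libraries (146, 147 and 148). Its log2 fold change, given throughout as KO minus CTRL, was 0.17 (SE 0.17, edgeR adjusted p = 0.542), and -0.07 without KO 146, so it does not settle the labels. Gene counts totalled 39841396 to 51917945 per library. The KO-labelled libraries also had higher glomerular and lower tubular marker levels. Summed podocyte markers (16 genes) stood at 1487 to 1746 CPM (read counts scaled to a common library size) in the CTRL-labelled libraries and at 3120 to 10330 CPM in the KO-labelled libraries. Endothelial markers (15 genes) stood at 838 to 978 and 1664 to 5627 CPM, and mesangial markers (14 genes) at 362 to 367 and 590.3 to 2229 CPM. Proximal tubule markers (20 genes) stood at 33560 to 35660 and 15840 to 27140 CPM, with KO 146 at the extreme in each of these lists. In every library the proximal tubule sum was above each of the glomerular sums, so the RNA was not from glomeruli alone. None of these markers was at 0 in a group, and the part of these differences in the results below was not tested. In RNA from a mix of cells, more cells in S phase and more RNA of these genes per cell cannot be told apart. Nor can it be told which cell types the reads of these genes came from.

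A cell prepares for S phase by licensing its origins: the origin recognition complex, Cdc6 and Cdt1 load the ring of Mcm2 to Mcm7 onto DNA. Cdc45 and the GINS complex then turn that ring into the active helicase, primase and the polymerases copy each strand, the clamp Pcna holds them on DNA, and newly made DNA is packed into chromatin and methylated. Many of these genes are switched on at the end of G1 by E2F transcription factors, while the genes of mitosis peak later and often carry a different promoter element, the CHR. Podocytes are terminally differentiated and seldom divide, whereas other cells of the young, growing kidney still do.

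The promoters of 6 members are shown because the E2F element is a feature many members share in their sequence. Each is the member of its role with the smallest adjusted p among those with a match, for the 6 roles where that p was smallest. Windows run from 250 bases before to 50 bases after the start listed by RefSeq (build GRCm38.p6), 5′ to 3′ on the gene's strand, and capitals mark matches to the E2F letters.
Mcm6 (chr1:128359656-128359955, minus strand): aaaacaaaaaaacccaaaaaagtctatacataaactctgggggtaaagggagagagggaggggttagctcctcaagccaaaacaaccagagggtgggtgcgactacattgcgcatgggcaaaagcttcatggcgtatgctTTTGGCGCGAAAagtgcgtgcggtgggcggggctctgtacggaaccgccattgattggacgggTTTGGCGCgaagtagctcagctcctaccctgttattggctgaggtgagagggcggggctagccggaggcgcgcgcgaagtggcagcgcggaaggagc
Uhrf1 (chr17:56304063-56304362, plus strand): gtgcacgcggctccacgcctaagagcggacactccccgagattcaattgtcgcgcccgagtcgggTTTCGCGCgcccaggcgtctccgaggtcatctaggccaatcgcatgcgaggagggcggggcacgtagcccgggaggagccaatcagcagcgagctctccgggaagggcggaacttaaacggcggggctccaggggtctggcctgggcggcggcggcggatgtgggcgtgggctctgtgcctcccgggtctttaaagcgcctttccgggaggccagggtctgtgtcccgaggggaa
Lig1 (chr7:13278576-13278875, plus strand): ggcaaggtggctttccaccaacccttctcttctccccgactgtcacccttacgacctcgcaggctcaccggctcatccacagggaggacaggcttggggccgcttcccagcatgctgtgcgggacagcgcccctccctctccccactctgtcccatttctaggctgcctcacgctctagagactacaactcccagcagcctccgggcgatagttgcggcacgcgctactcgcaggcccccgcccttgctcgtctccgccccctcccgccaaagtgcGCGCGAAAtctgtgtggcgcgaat
Cdc6 (chr11:98907901-98908200, plus strand): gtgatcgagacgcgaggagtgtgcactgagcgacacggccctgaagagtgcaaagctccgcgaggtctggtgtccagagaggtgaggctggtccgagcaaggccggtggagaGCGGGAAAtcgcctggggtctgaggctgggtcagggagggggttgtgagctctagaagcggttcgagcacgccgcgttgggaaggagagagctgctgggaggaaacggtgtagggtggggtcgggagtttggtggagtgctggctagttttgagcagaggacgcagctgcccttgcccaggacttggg
Pola1 (chrX:93632106-93632405, minus strand): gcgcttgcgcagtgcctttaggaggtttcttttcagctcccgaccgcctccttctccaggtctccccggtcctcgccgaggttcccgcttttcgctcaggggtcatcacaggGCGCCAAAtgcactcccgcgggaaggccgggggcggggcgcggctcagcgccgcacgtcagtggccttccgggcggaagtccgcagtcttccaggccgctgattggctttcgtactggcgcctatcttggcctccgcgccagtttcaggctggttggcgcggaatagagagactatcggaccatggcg
Gins3 (chr8:95633309-95633608, plus strand): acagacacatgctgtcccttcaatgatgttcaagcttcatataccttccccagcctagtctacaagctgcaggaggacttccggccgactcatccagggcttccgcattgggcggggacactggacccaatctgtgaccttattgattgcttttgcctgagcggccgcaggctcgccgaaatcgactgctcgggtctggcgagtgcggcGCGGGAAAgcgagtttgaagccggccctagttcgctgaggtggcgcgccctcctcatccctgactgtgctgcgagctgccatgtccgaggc
The Mcm6 window holds 3 matches, which begin 110, 106 and 47 bases before the start, and the pair farthest from it overlap on opposite strands. The match begins 185 bases before the start in Uhrf1, 138 before it in Cdc6 and in Pola1, 41 before it in Gins3 and 26 after it in Lig1. Uhrf1 and Lig1 have more than 1 listed start. Their other windows (from 56303087 in Uhrf1, from 13276925 and 13279015 in Lig1) hold 0 matches.

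The E2F letters were common in the promoters of the members. The search took TTTCCCGC, TTTGGCGC, TTTCGCGC and TTTGCCGC on both strands, and a gene counted if any of its listed starts had a match. Of the 34 members with a window in the table, 16 had one (47.06%, exact 95% binomial interval 29.78 to 64.87, which covers counting error only), against 2.6% of 27025 genes. Among windows rather than genes the shares were 39.02% of 41 and 2.26% of 32851. The members without a window are Exo1, Gins1, Gins2, Gins4, Mcm4, Pole, Prim2 and Rfc2. CCAAT, the box bound by NF-Y, was found in 61.76% of the members and 41.06% of all genes. TTTGAA, the CHR letters, was found in 14.71% of the members and 20.23% of all genes. Of a list of 30 mitotic genes, 26 had a window, and the E2F letters were found in 3.85%, the CHR letters in 76.92% and CCAAT also in 76.92% of these. The 16 members with an E2F match had a median log2 fold change of 0.65 (0.30 to 1.38) and the 18 without one a median of 0.47 (-0.05 to 1.27). These ranges overlap, and a match is a run of letters, not evidence of binding.

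**Figure D1:**
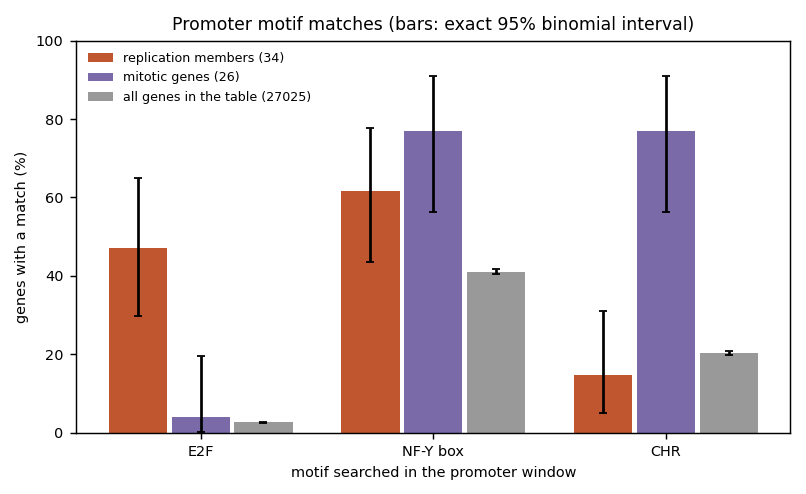
Share of genes (%) with a match to the E2F, NF-Y box or CHR letters in the promoter window, for the replication members, the mitotic genes and all genes of the table; error bars are exact 95% binomial intervals. The E2F share was 47.06% in the members and 3.85% in the mitotic genes, and the CHR share 14.71% and 76.92%.

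As a group, the replication genes stood moderately higher in the KO-labelled libraries. Of the 42 members, 7 rose (Mcm5, Mcm6, Pole, Lig1, Uhrf1, Chaf1b and Brca1), 0 fell and 35 did not pass an edgeR adjusted p of 0.05. Over all 17086 genes tested, 0.597% were called higher and 0.445% lower. The log2 fold change was positive for 39 members, against 49.2% of all genes, with a median of 0.58 against -0.006 for all genes. The 3 KO-labelled libraries all lay above the 3 CTRL-labelled ones for 34 members, against 21.9% of all genes. None lay wholly below, against 19.6% of all genes, and the groups overlapped for 8. At an unadjusted edgeR p below 0.05, 31 members were higher and 0 lower, with 17.5% and 11.8% of all genes.

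The summed level of the members was 411, 412 and 424 CPM in CTRL 157, 162 and 163 and 617.5, 599.9 and 551 CPM in KO 146, 147 and 148. The CTRL-labelled libraries lay close together and every KO library lay above them. The calls depended on which libraries were in the fit. Without CTRL 157, 162 or 163 or without KO 147, edgeR called 0 members with 0.00569%, 0.0171%, 0.0171% and 0.0115% of all genes then called higher. At an unadjusted p below 0.05 the same fits had 27, 26, 27 and 27 members higher. Without KO 146 it called 24 members and without KO 148 it called 21, while 10.4% and 13% of all genes were then called higher. DESeq2 called 26 members higher, with 12.1% of all its genes, and limma-voom called 5, with 0.433%. With the proximal tubule mean as a covariate 3 members were called (0.626% of all genes), with a median of 0.46. With the endothelial and mesangial mean 10 were called (1.52% of all genes), with a median of 0.43. Neither mean overlapped between the groups. The tubule mean was 9.72 to 9.87 log2 CPM in CTRL and 8.76 to 9.44 in KO. The endothelial and mesangial mean was 4.82 to 4.89 and 5.53 to 7.38. With 6 libraries, group and covariate are hard to separate, so values with a covariate cannot show what the mix of cells contributed.

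**Figure D2:**
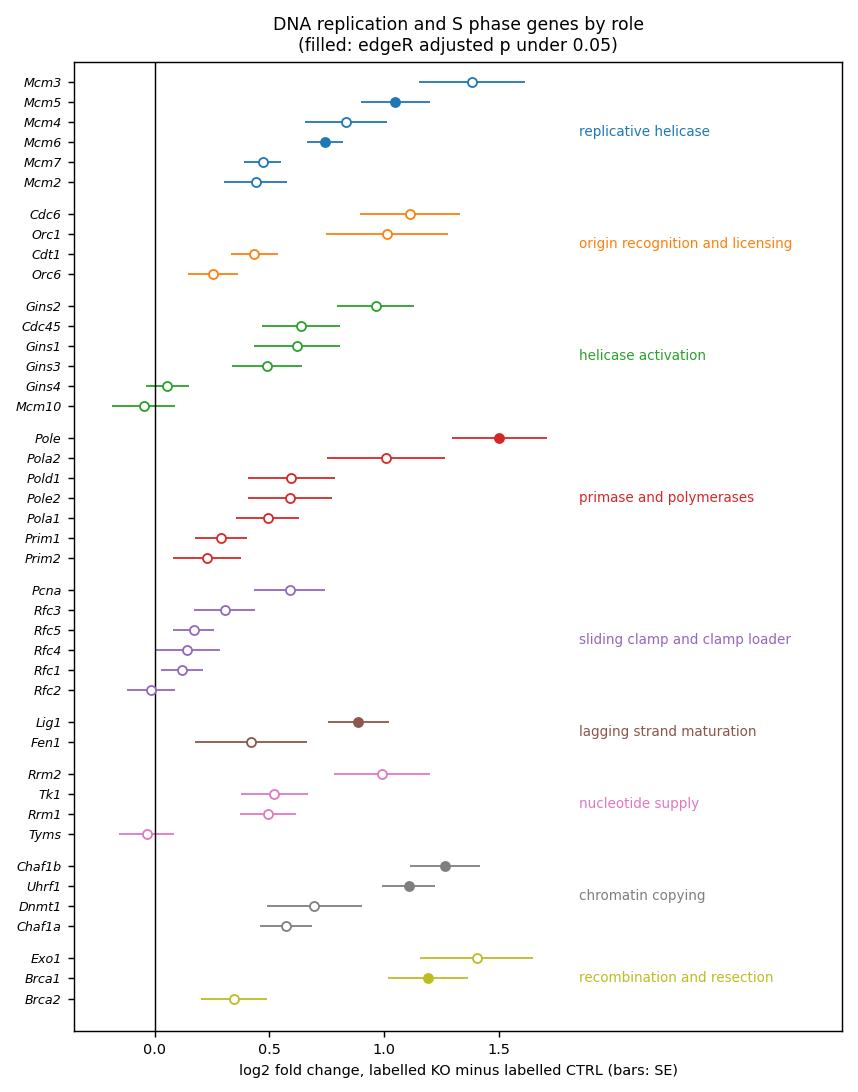
Log2 fold change (KO minus CTRL, as labelled) of each of the 42 members, sorted within its role; bars are standard errors, and filled points are edgeR calls at an adjusted p under 0.05. The values run from -0.05 for Mcm10 to 1.5 for Pole, and the clamp and clamp loader genes have the lowest median of the 9 roles, at 0.16.

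All 6 genes of the Mcm2 to Mcm7 ring, the motor that unwinds DNA at the fork, were at a higher level in every KO library than in any CTRL library. The same held for 21.9% of all genes. Mcm6 (ENSMUSG00000026355, chromosome 1, 128331590 to 128359664, minus strand, GRCm38) stood at 26, 24.6 and 25.9 CPM in CTRL 157, 162 and 163 and at 41, 45.2 and 41.9 CPM in KO 146, 147 and 148. The groups were well apart and each was tight, and the gene rose by 0.74 on the log2 scale (SE 0.078, edgeR adjusted p = 0.0225). Mcm5 (ENSMUSG00000005410, chromosome 8, 75109569 to 75128439, plus strand) stood at 8.85, 7.85 and 9.42 CPM in the CTRL-labelled libraries and 20.5, 18.7 and 14.9 CPM in the KO-labelled ones. It rose by 1.05 (SE 0.15, edgeR adjusted p = 0.0392), with KO 148 the lowest of its group. The other 4 did not pass: Mcm3 had a log2 fold change of 1.39, Mcm4 of 0.84, Mcm7 of 0.47 and Mcm2 of 0.44 (edgeR adjusted p 0.0546 to 0.0988). Mcm3 spread most within its group, at 28.2, 18.6 and 15.2 CPM in KO 146, 147 and 148 against 7.69 to 8.06 CPM. Values were also taken with the proximal tubule and the endothelial and mesangial mean as covariate in turn, both of which set the groups fully apart. Mcm2 then had 0.09 and 0.10, Mcm4 0.20 and 0.28, and Mcm3 0.53 and 0.64. Mcm7 had 0.36 and 0.37, Mcm5 0.69 and 0.71, and Mcm6 0.81 and 0.79.

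The 6 subunits are built into the ring in equal numbers, yet their RNA levels per length were not equal. As CPM per kilobase of merged exon (RPKM), the mean in the CTRL-labelled libraries was 5.47 for Mcm6, 4.55 for Mcm7, 2.75 for Mcm4, 2.18 for Mcm5, 2.13 for Mcm2 and 2.11 for Mcm3. In the KO-labelled ones it was 9.15 for Mcm6, 6.3 for Mcm7, 5.5 for Mcm3, 4.9 for Mcm4, 4.51 for Mcm5 and 2.88 for Mcm2. Mcm6 and Mcm7 had the highest means in both groups, though in KO 146 Mcm3 (7.51) lay above Mcm7 (6.55). Mcm2, Mcm3 and Mcm5 lay near each other in CTRL, and in each KO library Mcm2 was the lowest of the 6. Merged exon length joins the exons of all annotated transcripts, and was 6956 bases for Mcm2 against 3589 to 4666 for the others. The rank of Mcm2 depends on that length. Its KO mean of 20.06 CPM was above those of Mcm5 (18.02) and Mcm4 (17.6).

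Of the genes that recognise and license origins, all 4 had KO-labelled libraries wholly above the CTRL-labelled ones, against 21.9% of all genes, and none was called. Cdc6, the ATPase that helps load the helicase, stood at 1.16, 0.762 and 1.2 CPM in CTRL 157, 162 and 163 and at 2.37, 2.44 and 2 CPM in KO 146, 147 and 148, a log2 fold change of 1.11 (SE 0.22, edgeR adjusted p = 0.0726). Orc1, the subunit of the origin recognition complex that varies with the cell cycle, had a value of 1.01 on 14 to 18 reads per CTRL-labelled library and 25 to 48 per KO-labelled library. Its loading partner Cdt1 had a value of 0.43 and Orc6 of 0.25. The remaining subunits Orc2 to Orc5, named here after their values were seen, had log2 fold changes of -0.15, -0.23, -0.18 and -0.11, none of them called by edgeR. For each of them all KO-labelled libraries lay below the CTRL-labelled ones, as they did for 19.6% of all genes.

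Helicase activation was mixed. Gins2, a GINS subunit, stood at 2.46, 3.07 and 2.94 CPM in the CTRL-labelled libraries and 4.86, 6.35 and 5.35 CPM in the KO-labelled ones, with no overlap (log2 fold change 0.96, SE 0.17, edgeR adjusted p = 0.0595). In the annotation 67.3% of its exon bases are shared with Gse1 on the opposite strand. The sources used here do not give the strand setting of the counting. Cdc45, Gins1 and Gins3 had values of 0.64, 0.62 and 0.49, all with groups apart and uncalled. The fourth GINS subunit, Gins4, showed no separation, at 17.5, 15.8 and 17 CPM against 17, 18.6 and 16.8 CPM (0.06). Mcm10, which joins the helicase to the polymerases, overlapped as well, at 6.34, 7.38 and 6.78 CPM against 5.79, 6.88 and 7.17 CPM. Its log2 fold change was -0.05, or 0.08 with library totals as the only scaling. Per length Gins4 had the highest mean level of all members in the CTRL-labelled libraries, at 12.4 RPKM, against 0.689 for Gins2, 0.885 for Gins3 and 1.08 for Gins1.

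Among primase and the polymerases, the catalytic subunit of the leading strand polymerase epsilon had the largest value of all 42 members. Pole (ENSMUSG00000007080, chromosome 5, 110286306 to 110337474, plus strand) stood at 1.63, 1.52 and 1.45 CPM in CTRL 157, 162 and 163 and at 5.35, 4.1 and 3.52 CPM in KO 146, 147 and 148. It rose by 1.5 on the log2 scale (SE 0.21, edgeR adjusted p = 0.0365), and its lowest KO-labelled library was above every CTRL-labelled library. Pole2, the second subunit of that enzyme, had a value of 0.59, and Pold1, the catalytic subunit of polymerase delta, of 0.60. In the polymerase alpha and primase complex, Pola2 had a value of 1.01, Pola1 of 0.49, Prim1 of 0.29 and Prim2 of 0.23. With the proximal tubule and the endothelial and mesangial mean as covariate in turn, Pola2 had 0.09 and 0.19 and Pola1 0.26 and 0.27. Prim1 then had 0.47 and 0.45, and Prim2 0.06 and 0.09. Prim2 was the only one of the 7 with overlapping groups, at 4.39, 4.67 and 4 CPM against 5.27, 5.62 and 4.4 CPM.

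The sliding clamp and its loader had the lowest median log2 fold change of the 9 roles, at 0.16. Pcna, the ring that tethers polymerases to DNA, stood at 24.6, 25.8 and 32.1 CPM in the CTRL-labelled libraries and 49, 35.8 and 39.3 CPM in the KO-labelled ones. The groups did not overlap, but CTRL 163 lay near KO 147, and the log2 fold change was 0.59 (SE 0.16, edgeR adjusted p = 0.0827). Reads that align to several places are missing from the counts, and 2 annotated pseudogenes of Pcna held up to 292 reads in a library. Rfc3 and Rfc5 had groups apart with values of 0.30 and 0.17. The other loader genes overlapped. Rfc1, the large subunit, stood at 34.7, 34.9 and 33.3 CPM against 41.2, 36.2 and 34.3 CPM (0.12). Rfc2 stood at 43.8, 48 and 43.6 CPM against 39.1, 47.6 and 47.2 CPM (-0.02, or 0.12 with library totals). Rfc4 stood at 4.83, 4.52 and 4.97 CPM against 4.64, 5.41 and 5.81 CPM (0.14).

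Of the pair that finishes the lagging strand, Lig1 rose. This ligase, which seals Okazaki fragments (ENSMUSG00000056394, chromosome 7, 13277283 to 13311433, plus strand), stood at 8.9, 8.95 and 10.6 CPM in the CTRL-labelled libraries and 18.5, 19.1 and 15.1 CPM in the KO-labelled ones. The difference was 0.89 (SE 0.13, edgeR adjusted p = 0.0434). The flap nuclease Fen1 rested on 30 to 72 reads per library, at 1.21, 0.788 and 0.7 CPM against 1.22, 1.21 and 1.19 CPM (0.42, SE 0.24). CTRL 157 lay among the KO-labelled libraries, and 84.2% of the exon bases of Fen1 are shared with other genes, above all the antisense gene Gm10143.

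Nucleotide supply separated into 3 genes with KO wholly above CTRL (against 21.9% of all genes) and 1 with overlap, and none was called. Rrm2, the small subunit of ribonucleotide reductase whose protein accumulates in S phase, stood at 12.2, 14.1 and 15.9 CPM in CTRL 157, 162 and 163 and at 20, 33.1 and 31 CPM in KO 146, 147 and 148 (0.99, SE 0.21, edgeR adjusted p = 0.0785). KO 146 was the lowest of its group, in contrast to Mcm3. The large subunit Rrm1 had a value of 0.49 and thymidine kinase Tk1 of 0.52. Thymidylate synthase, Tyms, overlapped at 17.4, 17 and 17 CPM against 14.1, 18.3 and 17.8 CPM (-0.03, or 0.10 with library totals). Per length Rrm2 stood at 5.08 RPKM in the CTRL-labelled libraries and 10.1 in the KO-labelled ones, against 2.81 and 2.75 for Tyms.

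The genes that copy chromatin and its methylation stood higher in all KO libraries (against 21.9% of all genes), and 2 of 4 rose (against 0.597%). Uhrf1 (ENSMUSG00000001228, chromosome 17, 56303321 to 56323486, plus strand) brings the maintenance methyltransferase to hemimethylated DNA. It stood at 4.76, 5.22 and 5.51 CPM in the CTRL-labelled libraries and at 11.3, 11.6 and 10.5 CPM in the KO-labelled ones. Its rise of 1.11 (SE 0.12, edgeR adjusted p = 0.0225) came with little spread in either group. Chaf1b (ENSMUSG00000022945, chromosome 16, 93883901 to 93906115, plus strand), a subunit of the chromatin assembly factor that places histones behind the fork, stood at 2.74, 3.1 and 2.89 CPM against 7.78, 7.22 and 5.99 CPM. It rose by 1.27 (SE 0.15, edgeR adjusted p = 0.0332). Its partner Chaf1a had a value of 0.57 and was uncalled, with 52.5% of its exon bases shared with other genes, above all Ubxn6 on the opposite strand. Dnmt1, the maintenance methyltransferase, stood at 22.5, 20.9 and 20.7 CPM against 46.5, 30.9 and 26.3 CPM (0.70, SE 0.21, edgeR adjusted p = 0.0952). KO 146 was far above the others for Dnmt1, and its value was -0.07 with the proximal tubule mean as a covariate.

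Of the recombination and resection genes, which repair broken forks, Brca1 rose. Brca1 (ENSMUSG00000017146, chromosome 11, 101488764 to 101551955, minus strand) stood at 1.86, 1.31 and 1.65 CPM in the CTRL-labelled libraries and 3.75, 3.84 and 3.5 CPM in the KO-labelled ones (1.19, SE 0.17, edgeR adjusted p = 0.0405). The nuclease Exo1 had a value of 1.40 on 16 to 25 reads per CTRL-labelled library and 51 to 73 per KO-labelled library (SE 0.25, edgeR adjusted p = 0.0613). Brca2, which acts in homologous recombination, had a value of 0.35 with groups apart.

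**Figure D3:**
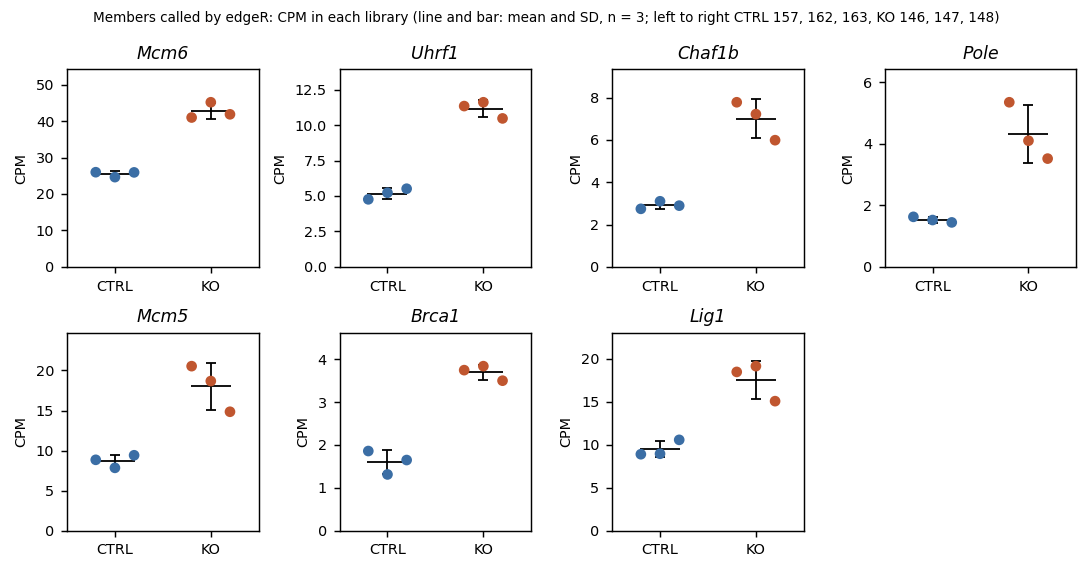
CPM in each library for the 7 members called by edgeR (points; left to right CTRL 157, 162 and 163, then KO 146, 147 and 148), with the mean and SD of 3 libraries. In each panel the lowest KO point lies above the highest CTRL point, as for Mcm6 at 41 against 26 CPM.

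The calls of these 7 members were lost in several alternatives while their direction was kept in all 15. Leaving a library out could hardly turn it, because every KO-labelled library lay above every CTRL-labelled one for these genes. Uhrf1 and Mcm6 were called in 11 of 15, with log2 fold changes of 1.02 to 1.25 and 0.70 to 0.88. Pole (0.95 to 1.66), Chaf1b (0.94 to 1.41) and Brca1 (1.07 to 1.34) were called in 10, Mcm5 (0.69 to 1.2) in 8 and Lig1 (0.69 to 1.03) in 7. For all 7 the calls were lost without CTRL 157, 162 or 163 and without KO 147. With the proximal tubule mean as a covariate edgeR called Mcm6, Uhrf1 and Rrm2.

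The KO-labelled libraries did not rank alike for all members. Of the 42, KO 146 was the highest of its group for 17 and the lowest for 14, KO 148 the highest for 9 and the lowest for 24. The log2 ratio of KO 146 to KO 148 had a median of 0.13 over the members, from -0.63 for Rrm2 to 1.01 for Pola2. The helicase genes had a median of 0.46 and the nucleotide supply genes of -0.38. Next to Pola2 the highest ratios were those of Mcm3 (0.89), Dnmt1 (0.82) and Mcm4 (0.69), and next to Rrm2 the lowest were those of Tk1 (-0.43), Tyms (-0.33) and Rfc4 (-0.32). The same ratio had a median of 1.83 for podocyte, 1.77 for endothelial and 1.89 for mesangial markers, of -0.75 for proximal tubule markers and of -0.27 for mitotic genes.

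**Figure D4:**
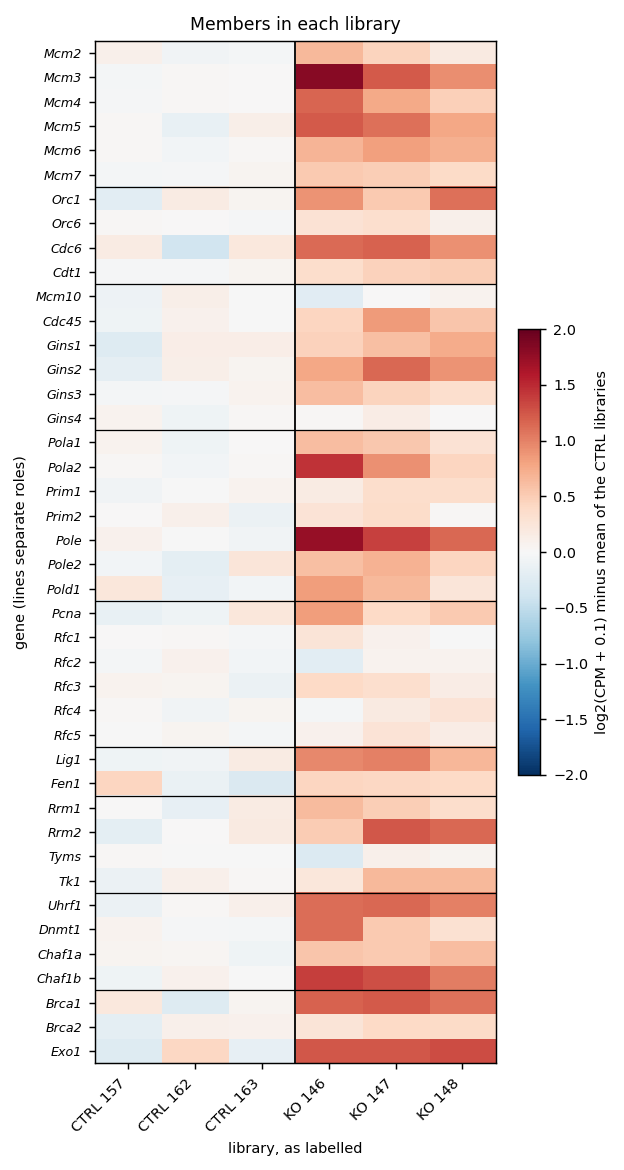
Log2(CPM + 0.1) of each member in each library, minus the mean of the 3 CTRL-labelled libraries; rows are genes, grouped by role, and columns are libraries. Mcm3, Pola2 and Dnmt1 are highest in KO 146, where Rrm2, Tyms and Tk1 are the lowest of the KO-labelled libraries.

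The lists were spread over the KO-labelled libraries to different degrees, and these spreads were not tested against each other. The members' mean was 2.56 to 2.6 log2 CPM in the CTRL-labelled libraries. It was 3.24 in KO 146, 3.23 in KO 147 and 3.11 in KO 148, which lie close together. The podocyte mean was 8.53, 7.35 and 6.88 in the same 3 libraries, against 5.82 to 6.08 in the CTRL-labelled ones. A narrow spread was not particular to the members. The other replication genes had means of 3.54, 3.48 and 3.45 in KO 146, 147 and 148, and the recombination and fork repair genes of 1.96, 2.07 and 2.04. Parietal epithelial markers (10 genes) had means of 4.43, 4.61 and 4.60 there and of 4.52 to 4.57 in the CTRL-labelled libraries, with overlap between groups. That mean joins genes that went opposite ways. All KO-labelled libraries lay above the CTRL-labelled ones for 2 of the 10 (Vcam1 1.54, Aldh1a2 0.87). They lay below for 3, among them Pax2 (-0.45) and Cldn1 (-0.36). Leukocyte markers (14 genes, with the neutrophil marker Ly6g at 0 in CTRL) summed to 84.9 to 98.7 and 78 to 101 CPM, with overlap between groups. Erythroid markers (8 genes) summed to 192 to 803 and 343 to 619 CPM, also with overlap.

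**Figure D5:**
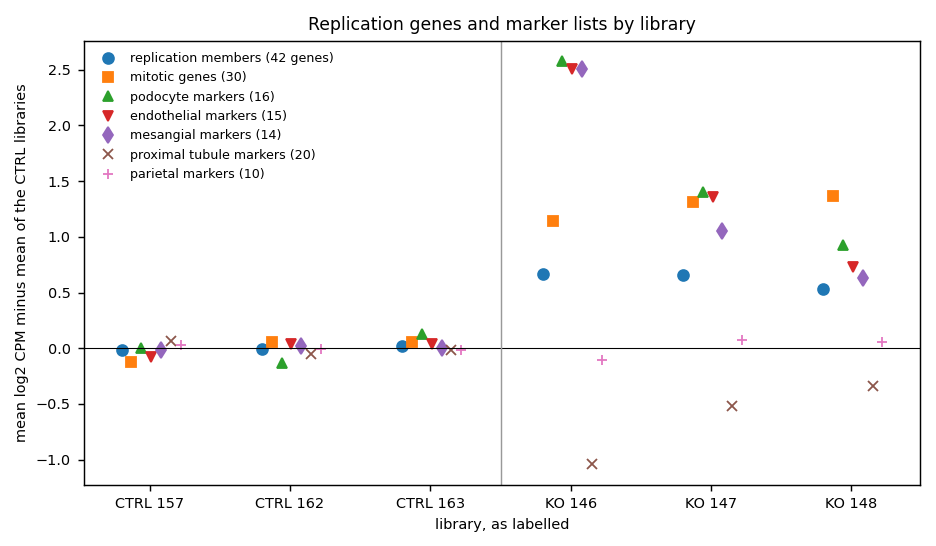
Mean log2 CPM of 7 gene lists in each library, minus the mean of the 3 CTRL-labelled libraries. The replication members lie at nearly the same height in the 3 KO libraries (3.11 to 3.24 log2 CPM before subtraction). So does the mean of the parietal markers (4.43 to 4.61), whose genes went in both directions. Podocyte, endothelial and mesangial markers peak in KO 146.

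Other genes of the replication pathway were counted from lists that do not contain the members. Of 36 other replication genes, 2 rose, 0 fell and 34 did not pass, with a median log2 fold change of 0.11. All KO-labelled libraries lay above the CTRL-labelled ones for 14 and below them for 7, against 21.9% and 19.6% of all genes. At an unadjusted edgeR p below 0.05, 10 were higher and 2 lower. Claspin (Clspn), the adaptor of the fork checkpoint, rose from 1.27 ± 0.18 to 4.24 ± 0.31 CPM (SD, n = 3 each; 1.75, SE 0.17, edgeR adjusted p = 0.0211). Chtf18, of an alternative clamp loader, rose by 1.11 (edgeR adjusted p = 0.0465), and its partner Dscc1 had a value of 1.58 (0.0564). Of 16 genes of nucleotide and histone supply 0 were called by edgeR, 1 by DESeq2 and 0 by limma-voom. At an unadjusted edgeR p below 0.05, 3 were higher and 1 lower, with 17.5% and 11.8% of all genes. DESeq2 called 12.1% of all its genes higher and limma-voom 0.433%. The median of the 16 was 0.04. The smallest adjusted p were those of the histone chaperone Asf1b (1.02), the deoxycytidine kinase Dck (0.34) and the histone chaperone Nasp (0.20), with edgeR adjusted p of 0.0942, 0.109 and 0.131.

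Among the E2F factors an activator and a repressor rose. Of 23 E2F and G1/S regulators, 2 rose, 0 fell and 21 did not pass, with a median of 0.21. The activator E2f1 rose from 6.89 ± 0.42 to 18 ± 3.41 CPM (SD, n = 3 each; 1.39, SE 0.16, edgeR adjusted p = 0.0302). The atypical repressor E2f8 rose by 1.69 (edgeR adjusted p = 0.0230), and E2f7 had a value of 1.57 (0.0714). Of 20 genes of recombination and fork repair, 2 rose and 0 fell, with a median of 0.75. Rad54l, a DNA translocase of homologous recombination, rose by 1.15 (edgeR adjusted p = 0.0389), and the checkpoint kinase Chek1 had a value of 1.01 (edgeR adjusted p = 0.0546).

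Mitotic genes, which act after S phase, had a larger median log2 fold change than the replication members. Of 30, 25 rose, 0 fell and 5 did not pass, with a median of 1.29 (0.93 to 1.60) against 0.58 (-0.05 to 1.5) for the members. The smallest adjusted p were those of Top2a (1.41), Cenpf (1.56) and Prc1 (1.60), with edgeR adjusted p of 0.00692, 0.00833 and 0.0124. Over all genes tested, 0.597% were called higher. Without CTRL 157, 162 or 163 or KO 147 edgeR called 0 of the mitotic genes. Without KO 146 or KO 148 it called all 30, while 10.4% and 13% of all genes were then called higher. The difference between the lists was not tested.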

How the data were processed

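The submitters' processing notes name the tools HTSeq 0.11.1, STAR 2.6.0, fastp 0.19.5 and DESeq2 without their roles, and the human build GRCh37 although all identifiers are mouse. The authors deposited raw counts of reads for each gene, 1 file per library. The 5 closing lines that name no gene held 0.13% (low quality) to 29.63% (aligned to several places) of records each and were left out. Names, positions and exon lengths came from GENCODE M21 (GRCm38), which holds all but 115 of the identifiers, and promoter windows from RefSeq (GRCm38.p6).

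Counts were tested in R 4.3.3 with edgeR 4.0.16 (TMM, filterByExpr with a minimum count of 10, robust quasi-likelihood F test, no covariate). P values were adjusted by Benjamini-Hochberg over all tested genes and called under 0.05. CPM are counts scaled by TMM library sizes. Log2 CPM used a prior count of 2, and the ratios of KO 146 to KO 148 log2(CPM + 0.1). Standard errors (SE) were derived from the size of the log2 fold change and F. Alternatives used DESeq2 1.42.0, limma 3.58.1, other scalings and filters, marker means as covariates, and each library left out. The fit was also run on simulated counts with the same relative spread for every gene and library. That run does not show how the fit behaves on these data. Replicate pairs differed by a chi-square per degree of freedom of at least 16.7, so none was taken as a copy. It was 298.6 for KO 146 and KO 148, against 16.7 to 18.4 among the CTRL-labelled pairs. Each library is from 1 mouse per the series' design. The members and lists were chosen with earlier results of these data known. Per-library values were given to called members, the member of each role with the smallest adjusted p, members with negative values or overlapping groups, and a few more chosen after their values were seen (Mcm3, Dnmt1). The 3 genes with the smallest adjusted p were named from each pathway list, except 1 that is not reported here.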

Additional observations from a re-analysis of the deposited data

How the results depend on the processing

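The direction of the 7 called members held in every alternative run, which their choice as called genes with groups apart made likely beforehand. The members called higher by edgeR numbered 7 (0.597% of all genes), and 13 without a count filter (0.631% of all genes). They numbered 26 by DESeq2 (12.1%) and 3 with the proximal tubule covariate (0.626%). Over the fits that leave out 1 library they numbered 0 to 24, while 0.00569% to 13% of all genes were called higher. Those called lower were 0 in all. The members' median of 0.58 became 0.72 with library totals, which took the all-gene median to 0.132 from -0.006. Of all calls, 57.3% were higher with TMM and 68.3% with library totals. It was 0.46 and 0.43 with the tubule and the endothelial and mesangial covariates, and 0.45 to 0.57 with a library left out. With these covariates 82.9% and 80.5% of all calls were higher. The causes were not tested.

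Over the settings below, the share of all genes called higher itself ran from 0.00569% to 13%. Other replication genes called went from 2 to 8 (DESeq2), 1 (limma-voom), 1 with either covariate, and 0 to 9 with a library left out. Nucleotide and histone supply went from 0 to 1 (DESeq2), 2 with the endothelial and mesangial covariate, and 0 to 2 with a library left out. E2F and G1/S regulators went from 2 to 9 (DESeq2) and 0 to 8 with a library left out. Recombination and fork repair went from 2 to 5 (no filter), 12 (DESeq2), 0 with the tubule covariate, and 0 to 13 with a library left out. Mitotic genes went from 25 to between 0 and 30 with a library left out.

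Signs turned for Arhgef7 and 5 members. With the tubule and the endothelial and mesangial covariate in turn, Arhgef7 was -0.46 and -0.38, Mcm10 0.19 and 0.19, Rfc1 -0.12 and -0.09, Rfc2 0.22 and 0.21, and Tyms 0.30 and 0.25. Dnmt1 was -0.07 with the first. With library totals Mcm10, Rfc2 and Tyms were 0.08, 0.12 and 0.10. With a library left out Arhgef7 ran from -0.07 to 0.28, Mcm10 from -0.12 to 0.03, Rfc2 from -0.07 to 0.06 and Tyms from -0.11 to 0.07. In the shorter promoter window, from 100 bases before the start, 32.35% of members held the E2F letters, against 1.45% of all genes. No paired analysis was possible because the groups share no animal numbers. Depth limits Orc1, Exo1, Fen1 and Cdc6, which had fewer than 60 reads in each library labelled CTRL.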
